A study of Homo sapiens with 12 samples.

Results

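The genes described here are 35 genes of the nuclear factor kB (NF-kB) pathway, chosen by name from general knowledge of the pathway: the subunits of the transcription factor, its inhibitors, regulators of its signaling, and target genes that include inflammatory cytokines and chemokines. Of the 35, 33 were found in the expression table of 43876 genes, and 23 had an FPKM (fragments divided by gene length in kilobases and by sequencing depth) of at least 1 in at least 3 libraries and were tested among 18574 such genes. CCL3 and CCL4 were not analysed here, and 10 genes with lower values are described by level only. RNA-seq was performed on MV4-11, a human acute myeloid leukemia (AML) cell line that carries an internal tandem duplication of the receptor FLT3 (FLT3-ITD). All cells were labelled wild-type and were kept for 24 h in DMSO (the drug solvent), in 20 nM mitoxantrone, in 25 nM gilteritinib, or in the combination of 20 nM mitoxantrone with 20 nM gilteritinib. Mitoxantrone is a topoisomerase II inhibitor that breaks DNA, and gilteritinib is an inhibitor of the FLT3 kinase. The study's text describes the first drug as a liposomal form, whereas the sample labels name mitoxantrone, and the labels' name is used here. Each treatment had 3 libraries, numbered 1 to 3, and 1 cell line stands for the disease. The labels do not say whether these were separate cultures, so that the p-values measure the spread between the libraries as they are, which may be technical.

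NF-kB is a family of dimeric transcription factors that wait in the cytoplasm, bound by IkB proteins. Signals from cytokine receptors, bacterial products or DNA damage lead to the destruction of the IkB proteins, and the freed dimers then enter the nucleus and bind kB sites in DNA. Their targets include inflammatory cytokines, adhesion molecules and survival factors, and also IkB proteins and TNFAIP3, which switch the signal off again. In monocytic cells, among them leukemia cells of monocytic type, the pathway drives the production of interleukin-1β, tumor necrosis factor and several chemokines.

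The kB site was searched as the 10-base kB consensus, on both strands, in the 250 bases before the RefSeq start of each gene (GRCh38.p14 promoter table). A promoter was found for 29 of the 35 genes, and 10 of the 29 (34.5%) held at least 1 match, compared with 9.96% of the 35116 promoters in the table. That share is over all entries, with no restriction by gene type, whereas the 35 genes are protein-coding and 1 entry was used for each. The 2 shares are therefore not of like sets. The matches lay in 2 of 4 subunit promoters, 2 of 3 inhibitor promoters, 2 of 5 promoters of signal regulators, 2 of 4 promoters of survival genes and 2 of 6 promoters of cytokines or chemokines, and in no promoter of the surface proteins or the other targets. A match is a description of the letters and not a bound site. The lack of a match to this 1 pattern in 250 bases does not show that a promoter has no kB site. The windows around the matches of the 7 tested genes are shown because kB sites are the letters NF-kB dimers bind, with capitals marking the match or matches and each written 5′ to 3′ on the strand of its gene. Windows that lie in an exon of the GENCODE 29 annotation are kept to 30 bases.
NFKB1: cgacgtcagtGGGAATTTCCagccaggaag
REL: gtcagccgcGGGAAATTCCCctcccgccag
NFKBIA: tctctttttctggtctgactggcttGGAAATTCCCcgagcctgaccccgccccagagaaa
NFKBIZ: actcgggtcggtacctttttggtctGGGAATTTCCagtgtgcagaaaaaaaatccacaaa
TNFAIP3: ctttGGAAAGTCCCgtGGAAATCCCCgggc
MAP3K8: ggggagacgcGGAATTTCCCagcgcggggg
CFLAR: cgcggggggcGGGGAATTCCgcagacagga

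The NFKB1 window is chr4:102501300-102501329 on the plus strand, and the REL window is chr2:60881518-60881547 on the plus strand. The NFKBIA window is chr14:35404796-35404855 on the minus strand, and the NFKBIZ window is chr3:101827742-101827801 on the plus strand; neither of these touches an annotated exon. The TNFAIP3 window is chr6:137867188-137867217, the MAP3K8 window chr10:30433982-30434011 and the CFLAR window chr2:201118609-201118638, all on the plus strand. The REL and TNFAIP3 windows hold 2 matches each, which overlap in REL and lie side by side in TNFAIP3. The other 3 promoters with a match belong to BIRC3, CXCL2 and CXCL3, which were under the limit for testing.

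The libraries held 31725013 to 41330655 fragments, as recovered from the steps that single fragments make in the FPKM values. The markers of the line were expressed in every library, among them FLT3 at 132 to 171 FPKM, SPI1, a transcription factor of the myeloid lineage, at 59.8 to 108, and HOXA9, a homeobox gene of immature blood cells, at 14.9 to 22.99. Of 14 markers of other cell types, 11 stayed under 1 FPKM in all libraries, and those above it included HBB (0 to 2.85) and PECAM1 (9.17 to 25.1). The 4 libraries numbered 1 stood apart from the other 8 on the first principal component of all tested genes, which carried 41.9% of the variance. Libraries 2 and 3 of a treatment were not copies of each other: over 5352 to 5364 genes with recovered fragment counts, the chi-square of their difference per gene, which counting noise alone keeps near 1, was 3.33 to 4.75, and it was 8.24 to 12.8 between either of them and library 1. Because of this split, the results are given with all libraries and with replicates 2 and 3 only. In bulk RNA, more cells of a kind and more RNA per cell cannot be told apart.

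**Figure D1:**
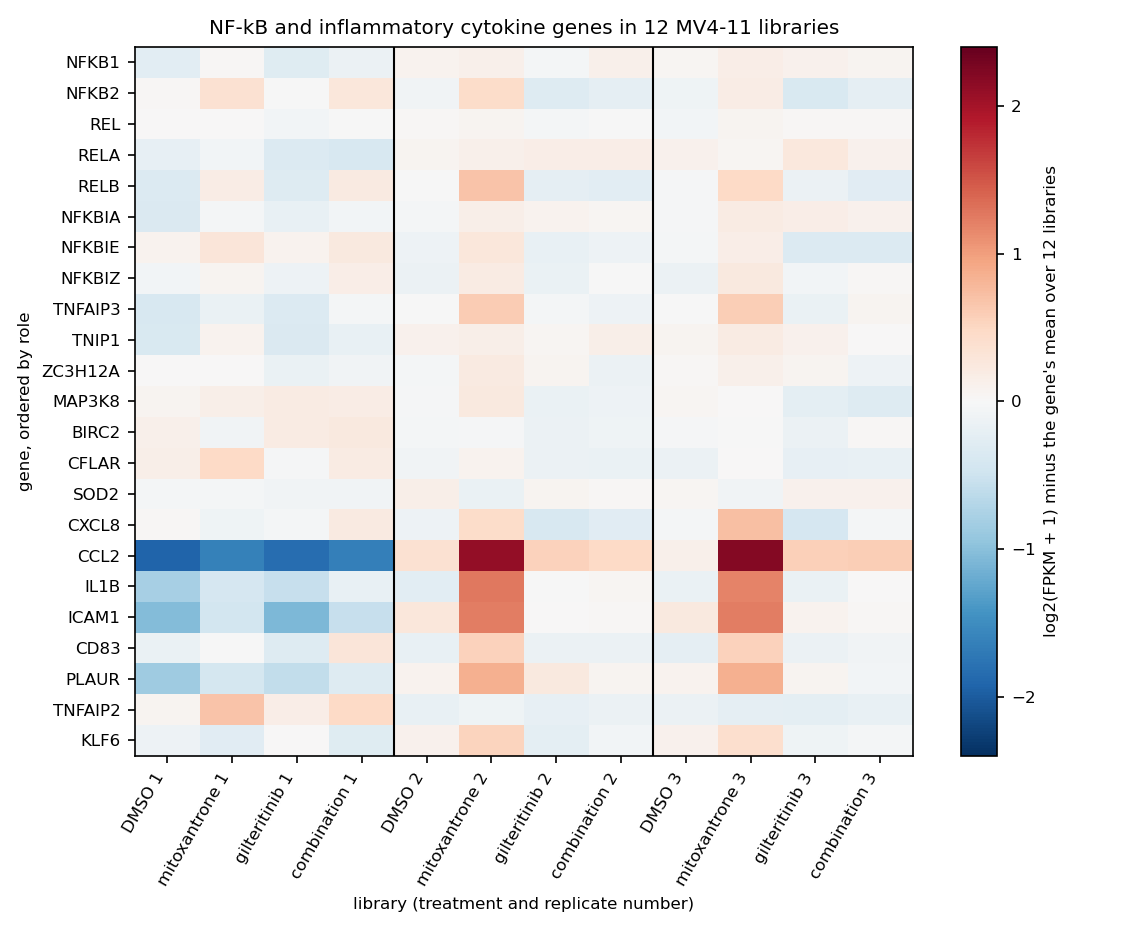
Level of the 23 tested genes in each of the 12 libraries, as log2(FPKM + 1) minus the gene's mean over all libraries (color, red above and blue below the mean); genes are rows in order of their role, libraries are columns grouped by replicate number and separated by black lines. CCL2, ICAM1 and PLAUR are below their mean in all 4 libraries numbered 1, and CCL2, IL1B, ICAM1, PLAUR and RELB are highest in mitoxantrone replicates 2 and 3.

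The genes spanned a wide range of levels. TNIP1 (28.7 to 43.0 FPKM), which helps TNFAIP3 to restrain the pathway, PLAUR (22.4 to 76.1), the urokinase receptor, and NFKBIA (15.5 to 23.1), the main IkB protein, were among the most abundant. Of the subunits, NFKB1 (11.99 to 16.7) and RELA (11.9 to 18.8), which form the classical dimer, were above REL (3.82 to 4.33), RELB (3.32 to 7.66) and NFKB2 (2.49 to 5.10) in every library, and the ranges of the last 3 overlap. The cytokines and chemokines ran from CCL2 (2.28 to 55.9), which attracts monocytes, through CXCL8 (5.97 to 14.1), which attracts neutrophils, and IL1B (2.08 to 11.9), the gene of interleukin-1β, down to CXCL2 (0.0544 to 0.317) and CXCL3 (0 to 0.0152), whose similar sequences make their split uncertain. Of the survival genes, CFLAR (14.7 to 23.9), an inhibitor of caspase-8, and BIRC2 (11.97 to 16.0), a ubiquitin ligase, were the most abundant, followed by SOD2 (7.61 to 9.61), a mitochondrial superoxide dismutase, which was matched to 1 of 2 gene records of that name. Of the 23 tested genes, 22 were at 1 FPKM or more in all libraries, so that the limit did not choose them for being high in 1 treatment; MAP3K8, a kinase upstream of ERK, is the exception (0.831 to 1.65).

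The genes differed between replicate numbers as well as between treatments. With the treatment in the model, 13 of the 23 genes (56.5%) differed between replicate 1 and replicates 2 and 3 at an adjusted p under 0.05 in limma, 4 higher and 9 lower in replicate 1, while 38.3% of all tested genes did (26.3% higher and 12.1% lower). CCL2 was at 2.28 FPKM in DMSO, 3.04 in mitoxantrone, 2.50 in gilteritinib and 2.97 in the combination in the 4 libraries numbered 1, and at 12.4 to 55.9 in the other 8. These ranges do not overlap, and the fitted difference was -2.62 ± 0.23 (log2 of FPKM + 1, SE) with an adjusted p of 0.000209 in limma. ICAM1, an adhesion molecule for leukocytes, was at 2.42 to 4.35 FPKM in replicate 1 and 6.27 to 15.9 in the others (difference -1.16 ± 0.14, limma adjusted p = 0.000666), and PLAUR was at 22.4 to 33.1 and 39.6 to 76.1 (difference -0.82 ± 0.12, limma adjusted p = 0.00156). RELA, at 11.9 to 15.0 and 16.2 to 18.8 FPKM, was the other gene whose libraries were all lower in replicate 1, with a difference of -0.37 ± 0.07, so that 4 of the 23 genes lay lower without overlap, compared with 6.39% of all tested genes. In the other direction, TNFAIP2, a target of TNF signaling in endothelial and myeloid cells, was at 17.9 to 28.1 FPKM in replicate 1 and 14.5 to 16.0 in the others (difference 0.52 ± 0.09), the 1 gene that lay higher without overlap, compared with 13.2% of all tested genes. NFKBIA, TNIP1, NFKB1, IL1B and TNFAIP3 were also lower in replicate 1 by 0.24 to 0.72, and CFLAR, NFKBIE and NFKB2 higher by 0.24 to 0.29, all with overlapping libraries. CFLAR shares 12% of its exon length, and ICAM1 23.6%, with other genes, and the library kit does not keep the strand. Replicate 2 against replicate 3 gave 0 of the 23 genes at an adjusted p under 0.05 in limma, with 0 at an unadjusted p under 0.05 (4.45% of all tested genes), and log2 differences from -0.15 to 0.10. What sets replicate 1 apart was not tested, and the labels name no batch.

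The first comparison asks how mitoxantrone alone changed the pathway. The highest levels of CCL2, IL1B, ICAM1, PLAUR, CD83, TNFAIP3, CXCL8 and RELB in the series were in mitoxantrone replicates 2 and 3, and mitoxantrone replicate 1 was lower for all 8. With all 3 libraries, 0 of the 23 genes passed an adjusted p of 0.05 in limma, as did 0% of all tested genes, and the adjusted p ran from 0.492 to 0.981. At an unadjusted p under 0.05, 6 genes were above DMSO and 0 below (26.1% of the 23, against 7.9% of all tested genes, 4.95% above). The fitted value was above 0 for 21 of the 23, with a median of 0.23 on the log2(FPKM + 1) scale compared with 0.03 for all tested genes. With replicates 2 and 3 only, 8 of the 23 rose at an adjusted p under 0.05 in limma and 0 fell (6.41% of all tested genes passed, 3.08% higher). Those 8 were CCL2, IL1B, ICAM1, PLAUR, CD83, TNFAIP3, CXCL8 and RELB.

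**Figure D2:**
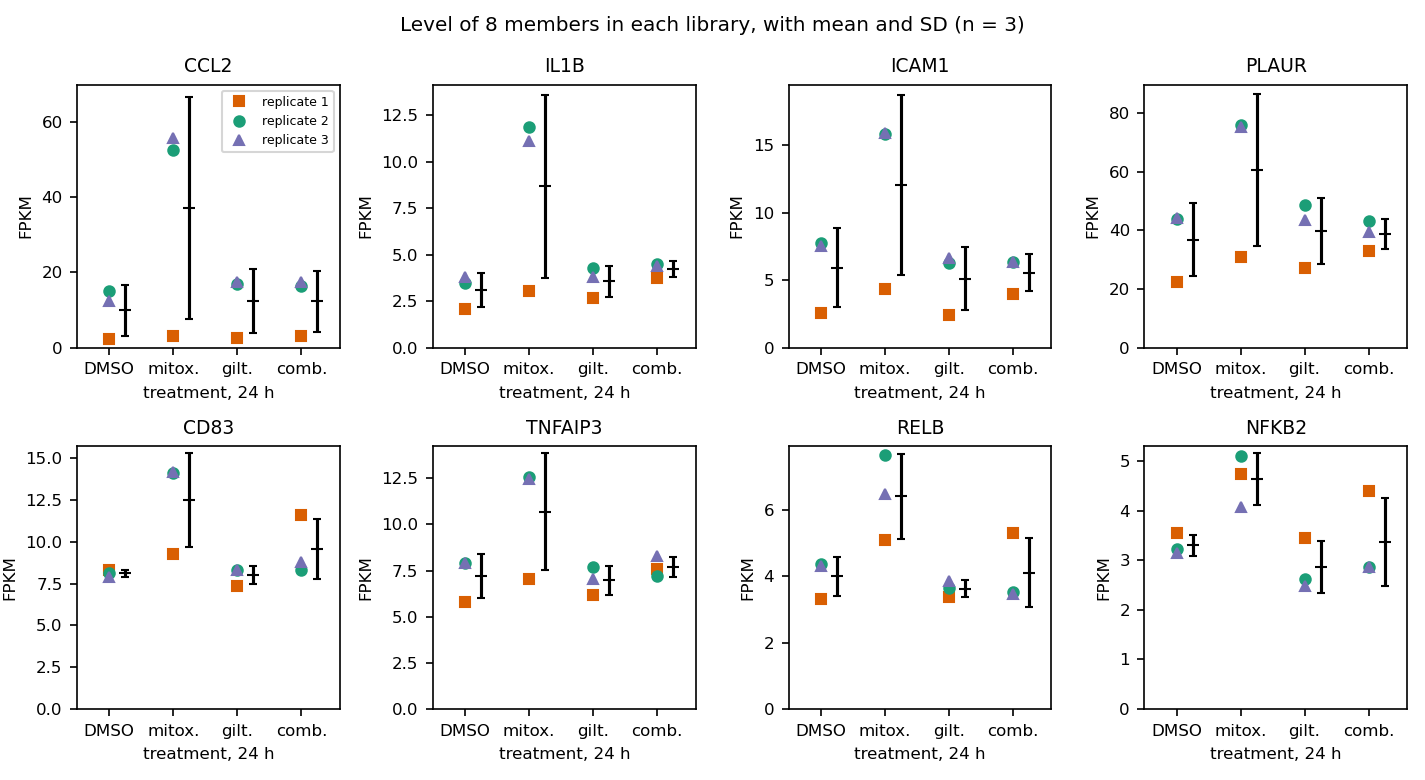
FPKM of 8 genes in each library by treatment (mitox., mitoxantrone; gilt., gilteritinib; comb., combination), with squares, circles and triangles for replicates 1, 2 and 3 and black bars for the mean and SD of 3 libraries. Mitoxantrone replicates 2 and 3 lie above all other libraries for CCL2, IL1B, ICAM1, PLAUR, CD83 and TNFAIP3, and mitoxantrone replicate 1 does not.

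Among the subunits, RELB was at 3.32, 4.37 and 4.30 FPKM in DMSO replicates 1 to 3 and at 5.10, 7.66 and 6.49 in mitoxantrone. All 3 mitoxantrone libraries were above all 3 DMSO libraries, and the fitted change was 0.56 ± 0.17 (limma adjusted p = 0.492). NFKB2, the precursor of the p52 subunit that pairs with RelB, was at 3.55, 3.22 and 3.15 FPKM in DMSO and 4.74, 5.10 and 4.06 in mitoxantrone, again without overlap (change 0.39 ± 0.15, limma adjusted p = 0.576). Both genes act in the non-canonical branch of the pathway. For NFKB1 (0.14 ± 0.12), RELA (0.05 ± 0.17) and REL (0.06 ± 0.08) the libraries overlapped and the limma adjusted p was 0.863, 0.981 and 0.940. REL shares 43.3% of its exon length with another gene, so that its reads cannot be fully assigned.

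The inhibitors had small differences. NFKBIZ, a nuclear IkB protein that co-activates a subset of targets, was at 1.23, 1.12 and 1.11 FPKM in DMSO and 1.45, 1.69 and 1.75 in mitoxantrone (change 0.29 ± 0.10, limma adjusted p = 0.523), without overlap. NFKBIE was at 5.76 to 6.77 FPKM in DMSO and 7.19 to 8.05 in mitoxantrone, also without overlap (0.27 ± 0.15, limma adjusted p = 0.716). NFKBIA was at 15.5, 19.2 and 19.6 FPKM in DMSO and 19.2, 22.0 and 23.1 in mitoxantrone. Each mitoxantrone library was above the DMSO library of its number, the groups overlapped, and the change was 0.23 ± 0.12 (limma adjusted p = 0.678). TNFAIP3, the ubiquitin-editing protein A20, was at 5.80, 7.89 and 7.89 FPKM in DMSO and at 7.03, 12.6 and 12.4 in mitoxantrone, a change of 0.48 ± 0.19 (limma adjusted p = 0.582) that was 0.60 with replicates 2 and 3 only (limma adjusted p = 0.00977). The other signal regulators, TNIP1, ZC3H12A (an RNase that degrades cytokine mRNAs) and MAP3K8, had changes of 0.09 to 0.21 with overlapping libraries. In all, 5 of the 23 genes (RELB, NFKB2, NFKBIZ, NFKBIE and CD83) had all mitoxantrone libraries above all DMSO libraries, or 21.7%, compared with 7.68% of all tested genes.

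CCL2, IL1B, ICAM1 and PLAUR had the 4 highest fitted changes of the 23 genes and the 4 widest standard errors. CCL2 was at 2.28, 15.0 and 12.4 FPKM in DMSO replicates 1 to 3 and at 3.04, 52.6 and 55.9 in mitoxantrone. The change was 1.37 ± 1.11 with all libraries (limma adjusted p = 0.850) and 1.91 ± 0.09 with replicates 2 and 3 only (limma adjusted p = 0.000377). By replicate number, the difference on the log2 scale was 0.30, 1.74 and 2.08, and mitoxantrone replicate 1 was below DMSO replicates 2 and 3. IL1B was at 2.08, 3.45 and 3.79 FPKM in DMSO and at 3.02, 11.9 and 11.1 in mitoxantrone, with a change of 1.09 ± 0.38 (limma adjusted p = 0.519) that was 1.44 ± 0.08 with replicates 2 and 3 only (limma adjusted p = 0.000712). Leaving out mitoxantrone replicate 1 alone brought IL1B past the threshold, at 1.63 and a limma adjusted p of 0.0181, and it was then the only 1 of the 23 genes to pass. That fit keeps DMSO replicate 1, and IL1B was lower in replicate 1, so its groups are not balanced by replicate number. The share of all tested genes that passed in that fit is not given, so the count is not read as particular to these genes. CXCL8 was at 8.43, 7.46 and 7.92 FPKM in DMSO and at 7.58, 11.4 and 14.1 in mitoxantrone. Its replicate 1 pair went the other way (-0.14), and the change was 0.39 ± 0.20 (limma adjusted p = 0.678), or 0.66 with replicates 2 and 3 only (limma adjusted p = 0.0286).

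ICAM1 was at 2.53, 7.77 and 7.51 FPKM in DMSO and at 4.35, 15.9 and 15.9 in mitoxantrone. The change was 0.84 ± 0.50 with all libraries (limma adjusted p = 0.749) and 0.97 ± 0.05 with replicates 2 and 3 only (limma adjusted p = 0.00059), and the mitoxantrone library was above the DMSO library at each number. PLAUR was at 22.4, 44.0 and 44.2 FPKM in DMSO and at 30.8, 76.1 and 75.2 in mitoxantrone (change 0.66 ± 0.37, limma adjusted p = 0.717, and 0.76 ± 0.06 with replicates 2 and 3 only, adjusted p = 0.00243). CD83, a surface protein of activated antigen-presenting cells, was at 8.30, 8.16 and 7.89 FPKM in DMSO and 9.26, 14.1 and 14.2 in mitoxantrone, without overlap (change 0.54 ± 0.16, limma adjusted p = 0.492, and 0.75 ± 0.05 with replicates 2 and 3 only, adjusted p = 0.00109). Among the survival genes, CFLAR was at 0.22 ± 0.14, BIRC2 at -0.06 ± 0.11 and SOD2 at -0.15 ± 0.09, and none of the 3 passed with replicates 2 and 3 only. TNFAIP2 (0.21 ± 0.24) and KLF6, a zinc finger transcription factor (0.20 ± 0.19), did not pass either.

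**Figure D3:**
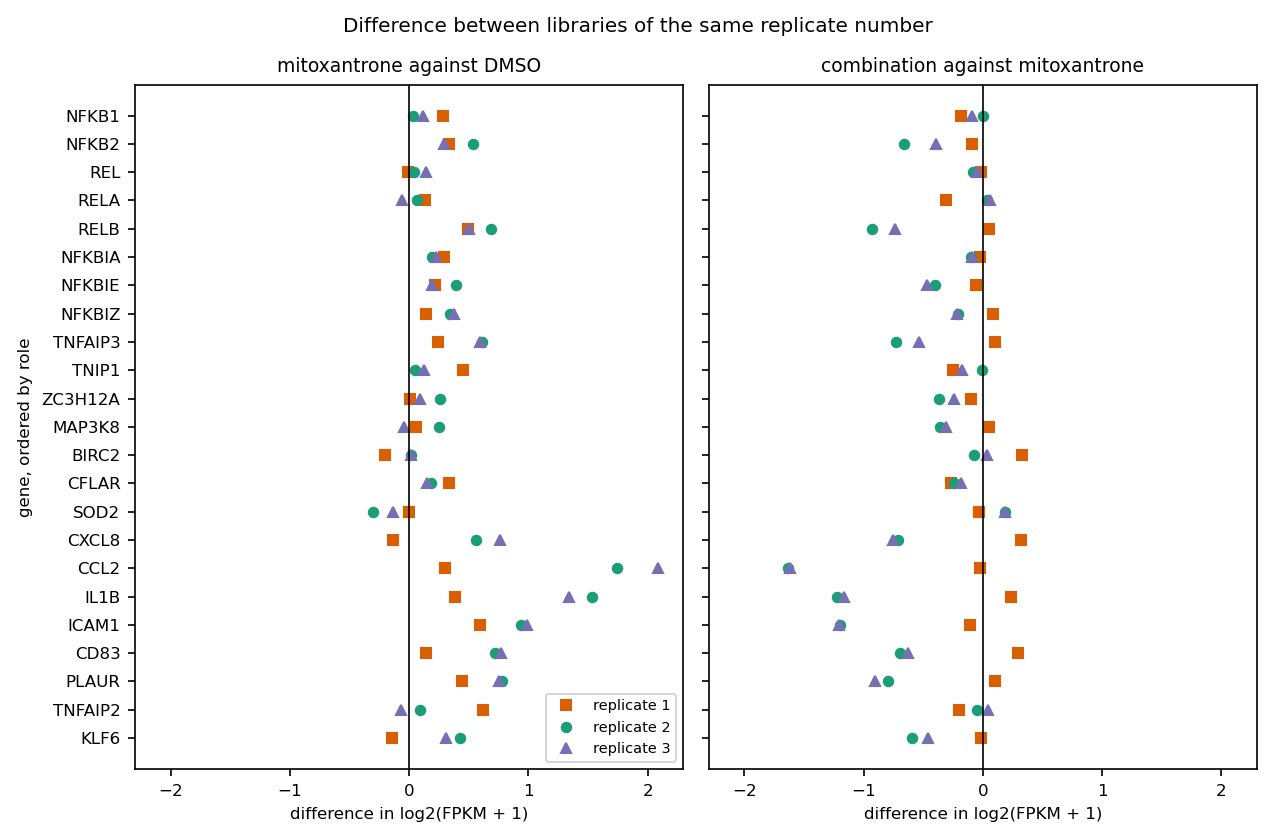
Difference in log2(FPKM + 1) between libraries of the same replicate number for each of the 23 tested genes, for mitoxantrone minus DMSO (left) and the combination minus mitoxantrone (right), with squares, circles and triangles for replicates 1, 2 and 3. For CCL2, IL1B, ICAM1, PLAUR, CD83 and TNFAIP3, replicates 2 and 3 lie farther from 0 than replicate 1 in both comparisons.

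The labels name no pairing of the libraries, and the values set only replicate 1 apart, so a block by replicate number is an alternative fit. With that block, the count for mitoxantrone at an adjusted p under 0.05 in limma stayed at 0. The count at an unadjusted p under 0.05 was then 13 above DMSO and 0 below (15.9% of all tested genes, 9.45% above). The mitoxantrone library was above the DMSO library at all 3 numbers for 15 of the 23 genes and below at all 3 for 0, compared with 20.5% and 14.8% of all tested genes. Whether the difference between mitoxantrone and DMSO itself changed with the replicate number was not tested.

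Gilteritinib alone, which blocks the FLT3 kinase that the line depends on, was compared with DMSO next. Of the 23 genes, 0 passed an adjusted p of 0.05 in limma with all libraries (0% of all tested genes) and 0 passed with replicates 2 and 3 only (0.614% of all tested genes). At an unadjusted p under 0.05 the count with all libraries was 0, against 1.86% of all tested genes. The fitted changes ran from -0.24 to 0.24, with a median of -0.02 compared with -0.03 for all tested genes. CXCL8 was at 7.91, 6.01 and 5.97 FPKM in gilteritinib against 8.43, 7.46 and 7.92 in DMSO (-0.24 ± 0.20), lower at each number, with overlapping groups. NFKBIA was higher at each number, at 17.4, 21.2 and 22.3 FPKM against 15.5, 19.2 and 19.6 in DMSO (0.16 ± 0.12), and the value was 0.0556 without DMSO replicate 1. NFKB2 was at 2.49 to 3.45 FPKM against 3.15 to 3.55 (-0.17 ± 0.15). CCL2, at 2.50, 17.1 and 17.5 FPKM, and IL1B, at 2.66, 4.29 and 3.77, had changes of 0.24 ± 1.11 and 0.16 ± 0.38. The limma adjusted p of all 23 genes rounded to 1. NFKB1 (-0.03 ± 0.12), TNFAIP3 (-0.03 ± 0.19) and RELA (0.04 ± 0.17) had values near 0, whose sign changed with the scaling or with the library left out.

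**Figure D4:**
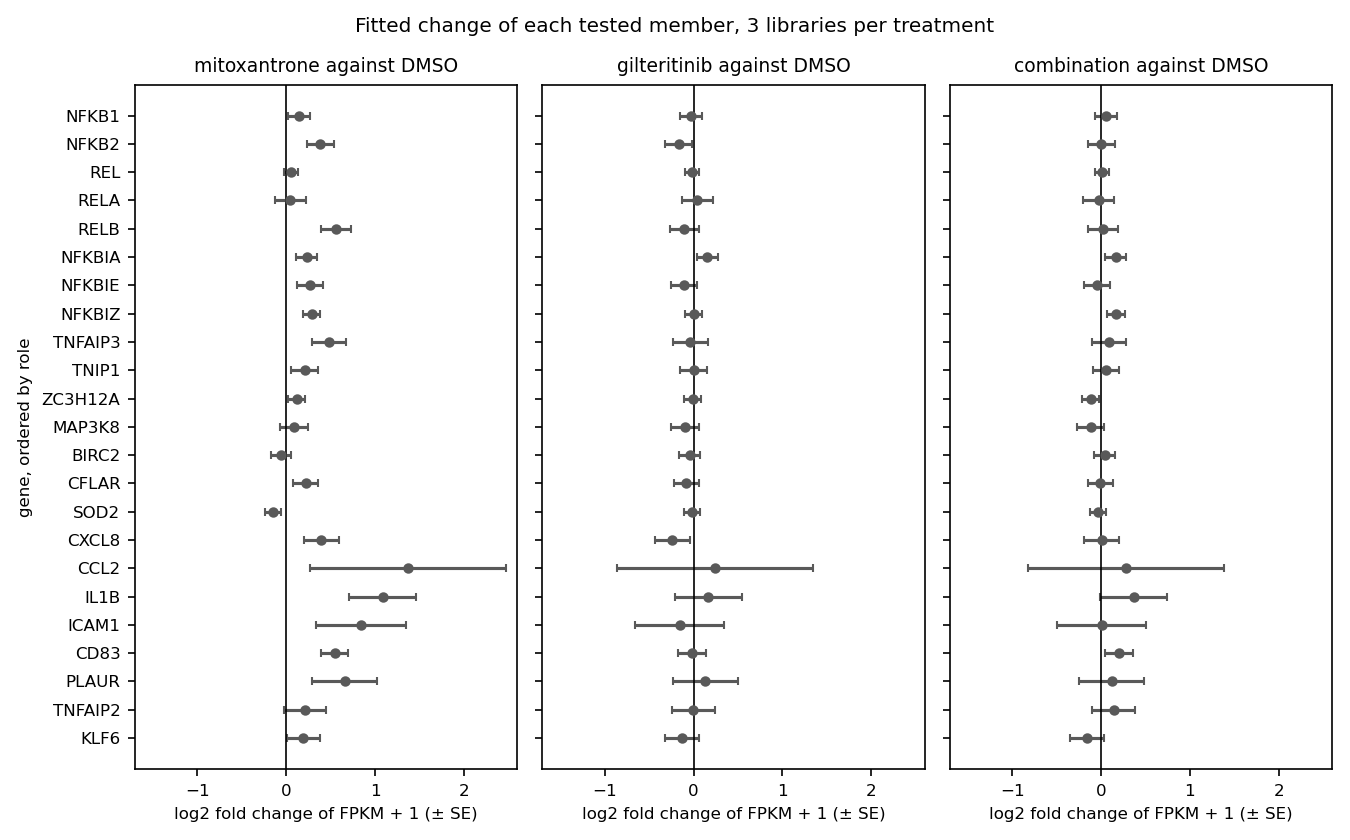
Fitted log2 fold change of FPKM + 1 against DMSO with its SE (bars) for the 23 tested genes, in order of role, for mitoxantrone, gilteritinib and the combination, each from 3 libraries per treatment. In mitoxantrone 21 of the 23 points are above 0; in gilteritinib and the combination the points lie between -0.24 and 0.37, and CCL2, ICAM1, IL1B and PLAUR have the widest bars in all 3 panels.

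The combination against DMSO also gave 0 of the 23 genes at an adjusted p under 0.05 in limma (0.00538% of all tested genes), 0 at an unadjusted p under 0.05 (1.67%) and 0 with replicates 2 and 3 only (0.0485%). The fitted changes ran from -0.16 to 0.37. NFKBIZ, at 1.60, 1.32 and 1.37 FPKM against 1.23, 1.12 and 1.11 in DMSO (0.17 ± 0.10), and CD83, at 11.6, 8.32 and 8.79 against 8.30, 8.16 and 7.89 (0.20 ± 0.16), had all combination libraries above all DMSO libraries, as did 2.57% of all tested genes. Without combination replicate 1 the CD83 value was 0.0678. NFKBIA was at 18.9, 20.5 and 21.6 FPKM (0.16 ± 0.12), higher than DMSO at each number with overlapping groups, and 0.064 without DMSO replicate 1. ZC3H12A was lower without overlap (3.78 to 3.97 FPKM against 4.14 to 4.39, a change of -0.12 ± 0.09), as were 3.16% of all tested genes. CCL2 was at 2.97, 16.3 and 17.6 FPKM and IL1B at 3.74, 4.51 and 4.41, so that in replicates 2 and 3 the combination was above DMSO by 0.29 and 0.24 on the log2 scale (limma adjusted p = 0.518 and 0.567). Against gilteritinib alone, 0 of the 23 genes passed in limma with all libraries (0% of all tested genes; 0 of the 23 and 1.63% of all tested genes at an unadjusted p under 0.05) or with replicates 2 and 3 only (0.0754%). The smallest p values there were those of NFKBIZ (0.17 ± 0.10), whose combination libraries were all above those of gilteritinib as for 3.87% of all tested genes, CD83 (0.22 ± 0.16) and CXCL8 (0.25 ± 0.20), and without combination replicate 1 those of CD83 and CXCL8 were 0.0846 and 0.12. Gilteritinib was at 25 nM alone and at 20 nM in the combination, so this pair differs in both drugs.

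The combination and mitoxantrone alone held the same dose of mitoxantrone. With all libraries, 0 of the 23 genes passed an adjusted p of 0.05 in limma (0% of all tested genes). At an unadjusted p under 0.05, 3 genes were lower in the combination and 0 higher (5.53% of all tested genes, 4.12% lower), and the fitted value was below 0 for 21 of the 23, with a median of -0.24 compared with -0.04 for all tested genes. RELB was at 5.31, 3.54 and 3.48 FPKM in the combination against 5.10, 7.66 and 6.49 in mitoxantrone (-0.54 ± 0.17, limma adjusted p = 0.888). NFKB2 was at 4.40, 2.86 and 2.86 FPKM against 4.74, 5.10 and 4.06 (-0.38 ± 0.15, limma adjusted p = 0.891). For both, the groups overlapped through replicate 1 of the combination. ZC3H12A (3.97, 3.78 and 3.86 FPKM against 4.34, 5.16 and 4.74) was the only 1 of the 23 genes with all combination libraries below all mitoxantrone libraries (-0.24 ± 0.09, limma adjusted p = 0.891), compared with 6.11% of all tested genes.

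With replicates 2 and 3 only, 10 of the 23 genes were lower in the combination than in mitoxantrone at an adjusted p under 0.05 in limma and 0 were higher (6.13% of all tested genes passed, 3.51% lower). They were the 8 genes that rose with mitoxantrone in those libraries, with NFKB2 and KLF6. Both comparisons share the mitoxantrone libraries. CCL2 differed by -1.62 ± 0.09 (limma adjusted p = 0.000671), ICAM1 by -1.20 ± 0.05, IL1B by -1.19 ± 0.08 and PLAUR by -0.85 ± 0.06. In replicate 1, CCL2 differed by -0.02, ICAM1 by -0.11, IL1B by 0.24 and PLAUR by 0.10. All 4 genes were lower in the combination at numbers 2 and 3, and the difference at number 1 was the closest to 0 of the 3 for each. With the replicate block, the count of genes lower at an unadjusted p under 0.05 was 10 (12.2% of all tested genes, 8.58% lower), and the adjusted count was 0 (0.0108%).

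Gilteritinib against mitoxantrone gave 0 of the 23 genes at an adjusted p under 0.05 in limma (0% of all tested genes) and 8 lower at an unadjusted p under 0.05 (9.52%, 6.56% lower): RELB (-0.67 ± 0.17), NFKB2 (-0.55 ± 0.15), CD83 (-0.56 ± 0.16), CXCL8 (-0.63 ± 0.20), NFKBIZ (-0.29 ± 0.10), TNFAIP3 (-0.52 ± 0.19), NFKBIE (-0.38 ± 0.15) and IL1B (-0.92 ± 0.38). The libraries of 6 genes did not overlap, compared with 9.12% of all tested genes, and 17 of the 23 were lower at all 3 numbers, compared with 28.8%. With replicates 2 and 3 only, 11 of the 23 were lower at an adjusted p under 0.05 (6.63% of all tested genes, 3.98% lower). Without mitoxantrone replicate 1 alone, IL1B was the 1 gene that passed (-1.47, limma adjusted p = 0.0262). That fit keeps gilteritinib replicate 1, so it is not balanced by replicate number, and its share of all tested genes is not given. With the replicate block, the unadjusted count was 14 lower (18% of all tested genes, 12.5% lower) and the adjusted count 0 (0.0269%).

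Whether the mitoxantrone difference was the same with and without gilteritinib was tested as an interaction, the combination minus gilteritinib less mitoxantrone minus DMSO. With all libraries, 0 of the 23 genes passed an adjusted p of 0.05 in limma (0% of all tested genes) and 0 an unadjusted p of 0.05 (2.91%). The fitted value was below 0 for 21 of the 23, with a median of -0.20 compared with -0.01 for all tested genes, and the smallest p values were those of RELB (-0.44 ± 0.24), ZC3H12A (-0.23 ± 0.13) and IL1B (-0.88 ± 0.53). With replicates 2 and 3 only, 5 of the 23 were below 0 at an adjusted p under 0.05 (2.97% of all tested genes, 1.27% below): CCL2 at -1.94 ± 0.13, IL1B at -1.32 ± 0.12, ICAM1 at -0.99 ± 0.07, PLAUR at -0.91 ± 0.09 and CD83 at -0.71 ± 0.07. With the replicate block over all libraries the count at an unadjusted p under 0.05 was 5 below 0 (7.4% of all tested genes, 3.84% below), and 0 passed after adjustment. The gilteritinib doses of the sum are unequal.

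The other genes of the pathway were compared by the same tests. Of 88 receptors, adaptors, kinases, further IkB proteins and targets, 50 were tested, and in mitoxantrone against DMSO 0 passed an adjusted p of 0.05 in limma, 4 were above (4.95% of all tested genes) and 0 below at an unadjusted p under 0.05, and the median was 0.03 for these and for all tested genes. All mitoxantrone libraries were above all DMSO libraries for 8 of the 50 and below for 0, compared with 7.68% above of all tested genes. With replicates 2 and 3 only, 2 were higher and 2 lower at an adjusted p under 0.05 (6.41% of all tested genes passed), and the median was -0.0012 compared with 0.02. In the combination against gilteritinib 38 of the 50 were above 0, with a median of 0.07 compared with 0.02 for all tested genes and 0 past an adjusted p of 0.05 (1 at an unadjusted p under 0.05 in limma). In mitoxantrone against DMSO the smallest p values were those of IL23A, a subunit of interleukin-23 (0.41 ± 0.13), JAG1, a Notch ligand (0.30 ± 0.12), and MAP3K14, the kinase of the non-canonical branch (0.32 ± 0.13). In that comparison the 7 kinases had a median of 0.02, the 9 receptors tested of 19 of 0.03 and the 23 adaptors and ubiquitin enzymes tested of 27 of -0.002. The 2 further IkB genes tested of 3 had a median of 0.13. The 9 targets tested of 32 had a median of 0.12, with 7 above 0 and 3 above without overlap (7.68% of all tested genes). With replicates 2 and 3 only, the median of these targets was 0.0004, and 0 were higher and 1 lower at an adjusted p under 0.05 in limma. In replicate 1 against replicates 2 and 3, 13 of the 50 were higher and 5 lower at an adjusted p under 0.05, compared with 26.3% and 12.1% of all tested genes.

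Immediate early genes, monocyte genes and markers of other cell types also differed between the libraries, and their part in the results was not tested. Of 13 immediate early genes tested of 15, 12 were above 0 in mitoxantrone against DMSO. Their median was 0.44, compared with 0.03 for all tested genes. With replicates 2 and 3 only, 6 rose and 1 fell at an adjusted p under 0.05 in limma (6.41% of all tested genes passed, 3.08% higher). FOSB was at 0.84 ± 0.29 with all libraries and JUND at -0.78 ± 0.28. In replicate 1, 11 of the 13 were lower than in replicates 2 and 3 at an adjusted p under 0.05, compared with 12.1% of all tested genes. The summed level of the list was 219 to 306 FPKM there and 312 to 433 in the other 8 libraries. Of 9 monocyte genes tested of 15, all 9 were above 0 in mitoxantrone against DMSO (median 0.33), all 9 in the combination (median 0.32) and 8 in gilteritinib (median 0.11). The medians of all tested genes were 0.03, -0.01 and -0.03. In mitoxantrone with replicates 2 and 3 only, 5 rose at an adjusted p under 0.05 (3.08% of all tested genes), among them ITGAX (1.96), FCGR2A (0.59) and CSF1R (0.89). In gilteritinib and the combination 0 passed, compared with 0.614% and 0.0485% of all tested genes. In replicate 1 against replicates 2 and 3, 5 of the 9 were lower and 3 higher at an adjusted p under 0.05 in limma. The shares of all tested genes were 12.1% and 26.3%. The median of the 9 was -0.30, compared with 0.09 for all tested genes, with CSF1R at -0.79, ITGAX at -0.97 and FCGR2A at -0.30. The summed monocyte level, most of it lysozyme (LYZ, 490 to 1333 FPKM), was nevertheless 755 to 1420 in replicate 1 and 585 to 701 in the others, while CD68, VCAN and FCN1 stayed under 1 FPKM in all libraries. The summed level of the 14 markers of other cell types, most of it PECAM1, was 29.7 and 30.3 FPKM in mitoxantrone replicates 2 and 3 and 12.1 to 18.9 in the other 10 libraries. PECAM1 was listed as an endothelial marker, and VWF, the other on that list, was among the 11 markers under 1 FPKM everywhere. The sum therefore follows mostly 1 gene and is not read as an amount of other cells.

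The 10 genes under the limit for testing are given by level. TRAF1, an adaptor of TNF receptors, was at 0.421, 0.489 and 0.579 FPKM in DMSO and at 0.764, 1.23 and 1.27 in mitoxantrone, with 0.492 to 0.660 in the other 6 libraries; it had 66 to 221 fragments per library. BIRC3, a ubiquitin ligase that limits cell death, was at 0.0529 to 0.101 FPKM in DMSO and 0.149 to 0.202 in mitoxantrone, from 7 to 56 fragments. For both, all mitoxantrone libraries were above all DMSO libraries, as for 7.68% of the genes past the limit. The share among genes under the limit was not taken, and neither gene was tested. CCRL2, a chemokine receptor-like protein, was at 0.147, 0.293 and 0.357 FPKM in DMSO, at 0.233, 1.001 and 0.780 in mitoxantrone and at 0.418, 0.483 and 0.492 in the combination, from 6 to 54 fragments. PTGS2, which encodes cyclooxygenase-2, stayed at 0.134 to 0.320 FPKM, and CD40, a costimulatory receptor, at 0.0160 to 0.159.

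NFKBIB, IER3 and TNF were listed at 0 or at most 0.0185 FPKM. These values are not read as absence of the mRNA, because genes that every cell uses were also listed at low values beside them. Near NFKBIB, ACTN4 was at 0.0159 to 0.0570 FPKM and HNRNPL at 0.016 to 0.598. TUBB, near IER3, was at 0.0647 to 0.125. Near TNF, DDX39B was at 0.0102 to 0.0817 and CSNK2B at 0 to 0.0813. Those neighbors were chosen after their values were seen. Of the protein-coding genes of the table within 200 kb, 13 of 13 near NFKBIB, 13 of 13 near IER3 and 17 of 21 near TNF had a mean under 0.1 FPKM. No statement on TNF, a main ligand and target of the pathway, can therefore be made from these libraries.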

How the data were processed

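RNA of MV4-11 cells was sequenced in 12 libraries, 3 for each of 4 treatments, grouped by the sample titles. The authors deposited 1 table of FPKM per gene, and 0 of its sample columns were left out. Per the labels, RNA was amplified by the Geo-seq method and libraries were made with a Tn5 kit, which keeps no strand; the labels' processing notes name, among others, Bowtie 0.12.9, Cufflinks 2.1.1 and HTSeq with the mouse build mm10, whereas the gene identifiers are human. The build behind the table is therefore uncertain, and positions are from GENCODE release 29 and RefSeq (GRCh38). Of the identifiers, 41461 had a current symbol.

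FPKM were used as deposited, as log2(FPKM + 1), for genes with at least 1 FPKM in at least 3 libraries. limma 3.58.1 (R 4.3.3, mean-variance trend) was fitted over all 12 libraries and all 18574 genes with 1 mean per treatment, two-sided, with Benjamini-Hochberg adjustment within each comparison; replicate numbers were compared with the treatment as a term. The study's statistics section names a general test for pairs of groups, and limma was used here in its place. The fits were also run on simulated data with changes of 1 size in all mitoxantrone libraries, with and without a shift of replicate 1. That setting differs from these data, so the run is not a check of the results given here. A fold change on this scale understates that of low genes. Depth was recovered from the FPKM steps: 98.9 to 99.2% of values of short genes were whole numbers of fragments within 0.05, and low counts limit the genes under the threshold.

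After subtraction of the treatment mean, libraries with the same number correlated in 18 of 18 pairs (0.16 to 0.66). Libraries numbered 2 also correlated with those numbered 3 of other treatments (0.11 to 0.43), in some cases above the same-numbered pair. Mitoxantrone replicate 3 was at 0.42 with DMSO replicate 2 and at 0.19 with DMSO replicate 3. The values therefore set replicate 1 apart, and a pairing of numbers 2 and 3 across treatments was not shown. The labels name no pairing. The genes, the lists and the rules were chosen with earlier results of these data known. Named with statistics were genes at an unadjusted p under 0.05 in a comparison (otherwise the 3 smallest), and against DMSO also NFKB1, RELA, NFKBIA, TNFAIP3, CXCL8 and IL1B; for replicate numbers, the 10 smallest p; for other lists, at most 3. Others were named after their values were seen. Promoters were scanned with Python 3.11.15. A comparison of protein sequences was not run.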

Additional observations from a re-analysis of the deposited data

How the results depend on the processing

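The counts of genes at an adjusted p under 0.05 stayed within 1.5 times of those given when the pseudocount was 0.1, when no gene or every gene with a mean FPKM under 5 was dropped, when libraries were scaled by median ratios or by quantiles, when the trend was left off and when the 6 libraries compared were fitted alone (not possible for the interaction): 0 in the 7 treatment comparisons and in replicate 2 against 3, and 12 to 14 in replicate 1 against 2 and 3 (10 without the treatment term, where the limma adjusted p of IL1B was 0.0835). With the replicate block, the adjusted count was 0 in all 7 treatment comparisons. Replicates 2 and 3 only gave 8 for mitoxantrone against DMSO, 10 for the combination and 11 for gilteritinib against mitoxantrone and 5 for the interaction. The same libraries with the replicate block, a setting chosen after seeing the data, gave 9, 8, 10 and 5. The share of all tested genes is not given for that setting, so its counts are not read as particular to these genes. The same holds for the settings of pseudocount, filter, scaling, trend, libraries fitted and treatment term above. The libraries left out make the difference, and why they do was not tested. With 2 libraries per treatment these p-values rest on the likeness of replicates 2 and 3.

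Leaving out 1 library at a time gave 0 to 1 for mitoxantrone against DMSO and for gilteritinib against mitoxantrone (1 without mitoxantrone replicate 1), 11 to 15 for replicate 1 against 2 and 3, and 0 to 0 for the others. The shares of all tested genes are not given for these fits, so the counts are not read as particular to these genes. Small values changed sign. For gilteritinib against DMSO, NFKB1 was 0.000275 with median-ratio scaling and 0.000605 with quantile normalization, and TNFAIP3 was 0.0177 with the latter. For the combination against DMSO, replicates 2 and 3 only, with or without the block, gave 0.0506 for RELA, -0.026 for TNFAIP3 and -0.0768 for CXCL8. Leaving out 1 library gave, for the combination against DMSO, -0.12 to 0.13 for CXCL8, -0.0493 to 0.14 for NFKB1, -0.13 to 0.15 for RELA and -0.0333 to 0.16 for TNFAIP3; for gilteritinib against DMSO, -0.0307 to 0.32 for IL1B, -0.14 to 0.0783 for NFKB1, -0.0705 to 0.22 for RELA and -0.16 to 0.0411 for TNFAIP3; for mitoxantrone against DMSO, -0.0487 to 0.11 for RELA; and for replicate 2 against 3, -0.0837 to 0.0029 for BIRC2, -0.24 to 0.0066 for CXCL8, -0.0499 to 0.0255 for NFKB1 and -0.0255 to 0.16 for PLAUR. None of these passed an adjusted p of 0.05 in limma. The cause was not tested.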
